A study of Homo sapiens with 10 samples.

Results

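HN5 and FaDu are established human cell lines of head and neck squamous cell carcinoma, and the study worked with them because they respond differently to erlotinib, an inhibitor of the epidermal growth factor receptor (EGFR). The comparison set 2 arrays of HN5 cells against 3 arrays of FaDu cells, all taken 24 h after transfection with miR-NC, a negative-control microRNA precursor. These are 5 of the 10 arrays of the series. The other 5 arrays, 2 of HN5 and 3 of FaDu, are labelled as transfected with the miR-7 precursor, and they entered only where these arrays, or all arrays of a line, are named. Each array is labelled as a biological replicate, and no further treatment or genetic change is labelled.

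HN5 RNA was measured on one type of Illumina BeadChip and FaDu RNA on another, so line and array type cannot be told apart in any value given here. For that reason signal was compared as a percentile rank within each array: the rank of a probe's scanner intensity among the 39424 probe identifiers that occur on both array types, where 100 is the brightest. These probes named 17881 genes, of which 10105 were detected (detection p-value below 0.01) on all arrays of one line or both and were tested through the brightest such probe. The lowest detected probe of an array lay between the 61.4 and the 64.1 percentile, so a rank printed below that level says only that the probe was not detected, and neither its size nor its order is a measurement. Arrays of the same line ranked the probes more alike than arrays of the 2 lines did: Spearman's rho was 0.899 between the 2 HN5 arrays, 0.804 to 0.815 between HN5 and FaDu arrays, and 0.921 to 0.929 among the FaDu arrays.

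The precursor labels of the FaDu arrays are in doubt, because by these labels EGFR, a known target of miR-7, was higher with miR-7 in FaDu, opposite to the direction the study describes. A difference between the lines was therefore called large only where it reached 25 percentile points, had an adjusted p under 0.05 and left the arrays of the lines apart, in the miR-NC arrays and again with all 4 HN5 and all 6 FaDu arrays. One further HN5 array, miR-7 replicate 2, ranked the probes less like the other HN5 arrays (rho 0.872 to 0.876) than these did among themselves (rho 0.896 or more), and without it the large differences numbered 414 higher and 253 lower in HN5.

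Squamous carcinoma cells keep parts of the programme of stratified epithelium, in which basal cells express KRT5 and KRT14 and differentiating cells make the proteins of the cornified envelope. Simple epithelia use KRT8, KRT18, KRT19 and KRT7 instead. Growth of such tumours is commonly driven by EGFR, and signals of the transforming growth factor beta family, which restrain epithelial growth, reach the nucleus through SMAD4.

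The lines differed in most genes by a little and in a smaller number by much. Of the 10105 genes, 4052 ranked higher (40.1%) and 3884 ranked lower (38.4%) in HN5 at an adjusted p under 0.05 (limma with Benjamini-Hochberg adjustment). The median absolute difference was 4.89 percentile points, beside a median SD between arrays of 0.665 points in HN5 (n = 2) and 0.615 points in FaDu (n = 3). A large difference was found in 384 genes that were higher in HN5 (3.8% of those tested) and in 255 that were lower (2.52%), together 639 genes (6.32%). In 365 of the 384 the probe was not detected on any FaDu miR-NC array, and in 252 of the 255 it was not detected on any HN5 miR-NC array, so most large differences set a measured level in one line against an unmeasured one in the other. With undetected ranks raised to the lowest detected rank of the array, an alternative added after the data were seen, 45 genes higher and 21 lower in HN5 still differed by 25 points. Among 63 of these 639 genes with more than 1 probe kept, 61 had all probes on the same side. Just inside the threshold lay LRIG3 (25.03 points) and CACNA1S (-25.0004 points), and just outside it PLCH2 (24.998 points) and ENDOV (-24.98 points).

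**Figure D1:**
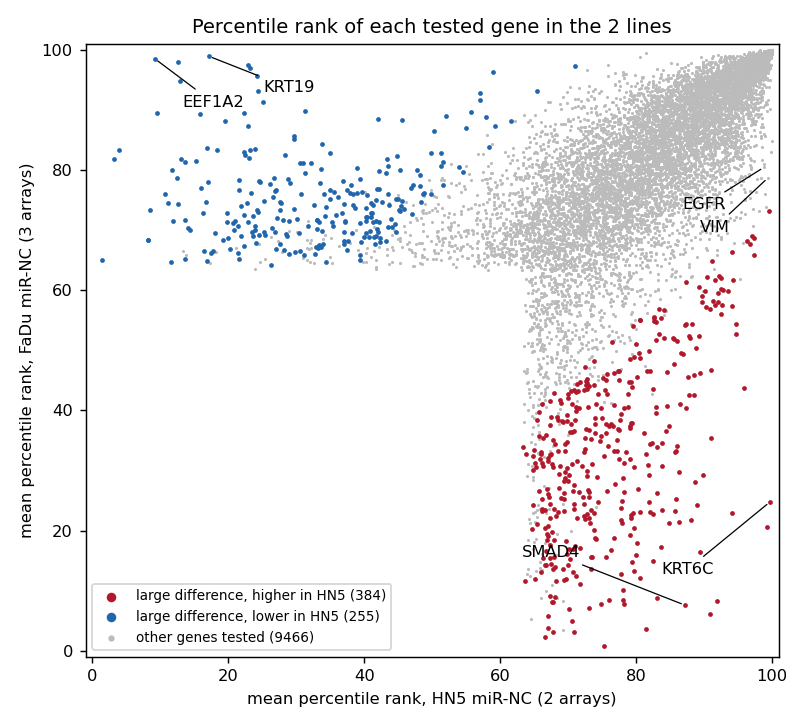
Mean percentile rank of each of the 10105 tested genes in HN5 (x axis, 2 miR-NC arrays) and in FaDu (y axis, 3 miR-NC arrays). The 384 red genes lie mostly where FaDu ranks fall below the detection level and the 255 blue genes where HN5 ranks do, while EGFR and VIM lie high in HN5 and within the detected range of both lines.

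Ranks compress differences between bright genes, so a second scale was used beside them: background-corrected log2 intensity, quantile-normalized over the arrays of both lines. On it 684 genes were at least 4-fold higher (6.77%) and 551 at least 4-fold lower (5.45%) in HN5 by the same rule of 2 fits. Of these, 793 did not have a large difference by rank. Fold values below are on this scale. Where a probe was not detected in a line, a bound is given in place of a difference in points, and the fold is written as at least the ratio to the lowest detected signal of those arrays. The adjusted p, the counts and the medians of gene lists come from the fit of all ranks, those of undetected probes included. All squamous epithelial markers with a shared probe were detected on all miR-NC arrays of both lines (11 of 11). Their mean percentile was 96.2 in both HN5 arrays and 88.2 to 88.7 in FaDu. This list holds EPCAM, which averaged 93.6 in HN5 and 98.95 in FaDu and is described below with the simple epithelial genes.

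**Figure D2:**
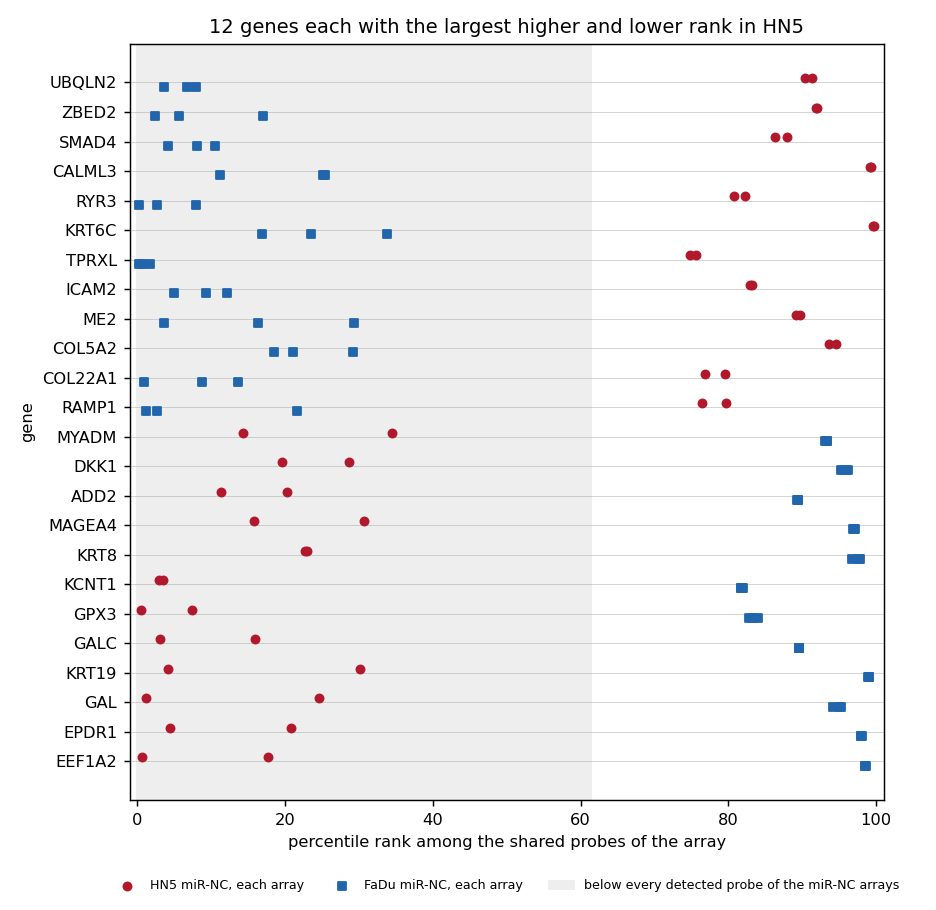
Percentile rank on each miR-NC array for the 12 genes named for the highest and the 12 named for the lowest HN5 minus FaDu rank difference; red circles are the 2 HN5 arrays, blue squares the 3 FaDu arrays, and the grey area holds ranks below every detected probe. In each gene the arrays of one line lie in the grey area, where positions carry no order, and those of the other line lie above it.

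Keratins differed between the lines in both directions. In what follows a difference is HN5 minus FaDu in percentile points with its standard error (SE). KRT6C, a keratin of activated and stratified epithelium, ranked 99.7 and 99.5 in HN5, against 16.9, 33.8 and 23.5 in FaDu, where it was not detected. KRT6C was at least 259.9-fold higher in HN5, although its probe may also pick up the near-identical KRT6A and KRT6B. Its adjusted p of 1.6e-05 came from limma's fit of these ranks and does not test that bound. KRT14, the acidic keratin of basal cells, ranked 99.9 and 99.98 in HN5, against 85.3, 84.4 and 84.99 in FaDu, a difference of 15.02 points (adjusted p = 1.6e-06) that amounted to 34.1-fold. Its partner KRT5 was close to the top in both lines, with 99.6 and 99.6 in HN5 and 97.2, 97.3 and 97.4 in FaDu. Both lines thus expressed the basal pair, and HN5 ranked higher for each.

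KRT1, the keratin of the spinous layer, ranked 76.3 and 75.7 in HN5 and 5.06, 17.8 and 2.25 in FaDu (at least 3.54-fold higher in HN5, adjusted p = 0.00087). KRT75, a keratin of the hair follicle, ranked 72.1 and 73.5 in HN5 and 43.3, 44.6 and 42.7 in FaDu (at least 2.50-fold higher in HN5, adjusted p = 5.3e-05). Neither was detected in FaDu. Of the 12 basal and stratified keratins tested, 8 ranked higher and 2 lower in HN5, beside 40.1% and 38.4% of all genes. A large difference higher was found in 3 of them (KRT6C, KRT1 and KRT75), beside 3.8% of all genes. The median difference was 4.32 points, beside 0.136 over all genes tested. With the FaDu arrays labelled miR-7 in place of the others 8 ranked higher and 4 lower, and the median was 2.35 points. KRT13, a keratin of mucosal epithelium, averaged 90.5 in HN5 and 95.1 in FaDu, and KRT80 averaged 88.2 in HN5 and 96.1 in FaDu, so not all members stood higher in HN5.

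The simple epithelial keratins ran the other way. KRT19 ranked 30.2 and 4.12 in HN5, against 99.01, 98.96 and 98.9 in FaDu, where it was among the brightest genes, at least 156-fold lower in HN5, adjusted p = 4.0e-05. KRT8, which pairs with KRT18 in simple epithelium, ranked 22.7 and 23.01 in HN5, against 97.7, 97.9 and 96.8 in FaDu, at least 79.8-fold lower in HN5, adjusted p = 1.2e-06. KRT7 ranked 34.1 and 47.9 in HN5 and 76.4, 74.2 and 72.8 in FaDu (at least 2.93-fold lower in HN5, adjusted p = 0.00023). The arrays of the lines did not overlap for any of these. KRT18 did not follow its partner: it averaged 74.8 in HN5 and 74.2 in FaDu (difference 0.619 points, adjusted p = 0.64), although keratin 18 has many copies in the genome that a probe could share.

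SCNN1A, the alpha subunit of the epithelial sodium channel, ranked 45.9 and 16.8 in HN5, against 89.7, 89.9 and 90.1 in FaDu (at least 17.9-fold lower in HN5, adjusted p = 0.00031). EPCAM, an adhesion molecule of simple and proliferating epithelium, was detected in both lines at 93.7 and 93.5 in HN5, against 99.02, 98.9 and 98.9 in FaDu, which was 4.90-fold lower in HN5 (adjusted p = 2.5e-06). Among the 12 tested genes of simple and glandular epithelium, 3 ranked higher and 7 lower in HN5, beside 40.1% and 38.4% of all genes. A large difference higher was found in 0 and lower in 4 (SCNN1A, KRT19, KRT8 and KRT7), beside 3.8% and 2.52%. The median difference was -4.89 points. CLDN7, a claudin of tight junctions, averaged 73.002 in HN5 and 94.05 in FaDu, and ELF3, an epithelial transcription factor, averaged 65.2 in HN5 and 89.1 in FaDu.

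**Figure D3:**
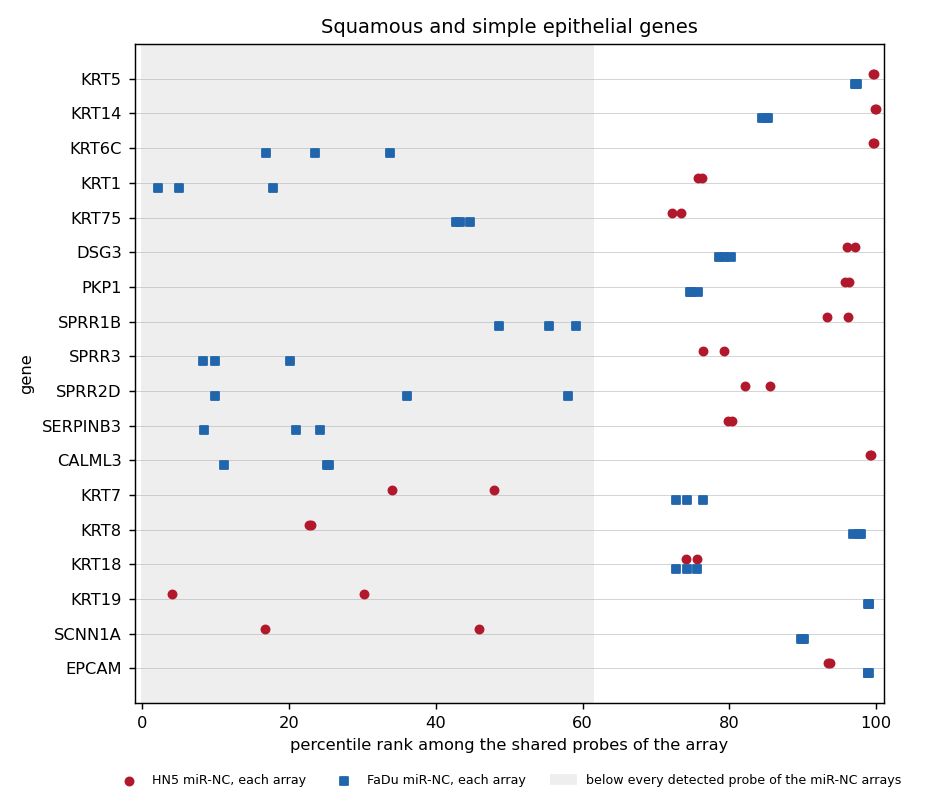
Percentile rank on each miR-NC array for genes of squamous epithelium (KRT5 to CALML3) and of simple epithelium (KRT7 to EPCAM); red circles are HN5, blue squares FaDu, and the grey area holds ranks below every detected probe. KRT6C lies near 100 in HN5 and in the grey area in FaDu, KRT19 the reverse, and KRT18 overlaps between the lines.

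Genes of squamous differentiation mostly ranked higher in HN5. CALML3, a calmodulin-like protein of stratified epithelium, ranked 99.2 and 99.2 in HN5, against 25.2, 25.4 and 11.2 in FaDu, at least 193-fold higher in HN5 (adjusted p = 1.5e-05). SPRR1B, a precursor of the cornified envelope, ranked 93.2 and 96.1 in HN5, against 48.6, 55.4 and 59.1 in FaDu (at least 40.96-fold higher in HN5, adjusted p = 2.4e-05), and it was detected on 2 of the 6 FaDu arrays once those labelled miR-7 were counted. SPRR3, of the same small proline-rich family, ranked 76.4 and 79.2 in HN5 and 8.35, 9.92 and 20.2 in FaDu (at least 4.33-fold higher in HN5, adjusted p = 0.00032). SPRR2D followed with 82.2 and 85.5 in HN5 and 9.89, 57.96 and 36.1 in FaDu, and its FaDu ranks were all below detection. SERPINB3, the squamous cell carcinoma antigen, ranked 79.8 and 80.4 in HN5, against 24.3, 8.50 and 20.9 in FaDu (at least 5.59-fold higher in HN5, adjusted p = 0.00019), and near-identical SERPINB4 may share its signal.

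Of the 36 tested genes of this list, 27 ranked higher and 7 lower in HN5, beside 40.1% and 38.4% of all genes. A large difference higher was found in 8 (CALML3, SPRR3, SERPINB3, SPRR2D, SPRR1B, SBSN, CLCA2 and KLK7) and lower in 2 (TGM1 and KLK6). Over all genes these shares were 3.8% and 2.52%. The median difference was 11.4 points. The pair that ran against the list are an enzyme and a protease of the same layer: TGM1, which crosslinks the envelope, averaged 68.2 in FaDu and was not detected in HN5, and KLK6, a secreted serine protease, averaged 96.4 in FaDu and was not detected in HN5. The desmosomal genes PKP1 and DSG3, chosen after their values were seen, ranked higher in HN5, PKP1 with 96.3 and 95.7 in HN5 and 75.7, 74.7 and 74.8 in FaDu (16.7-fold) and DSG3 with 97.1 and 95.99 in HN5 and 80.2, 79.3 and 78.6 in FaDu (12.01-fold). GJB6, a gap junction protein of stratified epithelium, ranked 88.2 and 87.9 in HN5, against 27.5, 14.2 and 23.8 in FaDu (at least 14.4-fold higher in HN5, adjusted p = 3.4e-05), and PPL, a plakin of the cornified envelope, averaged 71.1 in HN5 and 91.8 in FaDu. Over the 32 tested junction genes 16 ranked higher and 11 lower, beside 40.1% and 38.4% of all genes, and with the FaDu arrays labelled miR-7 in place of the others it was 14 and 13, with a median of -0.189 points.

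Promoters of 1 gene on each side are shown with 2 zinc finger genes described further on, to let the sequence at the start site be set beside the ranks. They are RefSeq windows from 250 bases before to 50 bases after an annotated start (GRCh38.p14), which were found for 8377 of the 10105 tested genes. Only 1 window per gene was used, so other start sites of a gene, where it has them, are not shown. Which start site these cells used was not tested. In the SPRR3 window the capitals mark TATAAA, and in the others they mark CpG dinucleotides.
SPRR3 (chr1:153001499-153001798, plus strand): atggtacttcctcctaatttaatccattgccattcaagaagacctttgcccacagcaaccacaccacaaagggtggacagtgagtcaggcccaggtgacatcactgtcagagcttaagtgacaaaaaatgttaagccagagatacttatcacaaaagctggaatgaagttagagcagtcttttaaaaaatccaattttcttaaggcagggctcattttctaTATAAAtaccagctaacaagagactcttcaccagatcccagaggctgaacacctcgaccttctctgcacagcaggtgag
KRT8 (chr12:52926420-52926719, minus strand): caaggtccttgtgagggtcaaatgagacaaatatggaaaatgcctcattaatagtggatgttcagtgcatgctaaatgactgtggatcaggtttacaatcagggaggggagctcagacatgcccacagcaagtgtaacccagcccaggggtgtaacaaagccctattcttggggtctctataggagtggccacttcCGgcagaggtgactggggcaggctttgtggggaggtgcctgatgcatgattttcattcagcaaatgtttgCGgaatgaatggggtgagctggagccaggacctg
ZNF256 (chr19:57947657-57947956, minus strand): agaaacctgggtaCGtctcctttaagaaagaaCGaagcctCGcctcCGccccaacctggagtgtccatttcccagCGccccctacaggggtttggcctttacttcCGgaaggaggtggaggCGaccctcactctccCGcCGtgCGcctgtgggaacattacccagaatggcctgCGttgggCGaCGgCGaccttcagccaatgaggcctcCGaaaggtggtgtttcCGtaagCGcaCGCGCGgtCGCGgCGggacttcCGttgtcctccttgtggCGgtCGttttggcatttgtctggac
ZNF613 (chr19:51927222-51927521, plus strand): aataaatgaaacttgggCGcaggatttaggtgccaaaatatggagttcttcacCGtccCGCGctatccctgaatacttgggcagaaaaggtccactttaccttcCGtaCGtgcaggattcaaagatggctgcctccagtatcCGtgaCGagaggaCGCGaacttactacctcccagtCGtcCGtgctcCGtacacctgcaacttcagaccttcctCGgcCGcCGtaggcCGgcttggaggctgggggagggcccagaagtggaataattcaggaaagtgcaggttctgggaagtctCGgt
The SPRR3 window holds TATAAA starting 29 bases before the start site and 1 CpG, the KRT8 window 2 CpG, the ZNF256 window 26 and the ZNF613 window 18. TATAAA on either strand occurred in 10.7% of windows of genes with a large difference higher in HN5, in 8.76% of those lower, in 5.86% of all tested genes and in 12% of all 27305 windows of the table. The median number of CpG was 18 in genes higher in HN5, 22 in genes lower and 26 in all genes tested. A match describes these letters only.

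EGFR itself did not reach 25 percentile points. It ranked 98.9 and 98.7 in HN5, against 80.2, 80.7 and 80.4 in FaDu, a difference of 18.3 ± 0.428 SE, adjusted p = 1.6e-06, or 24.8-fold higher in HN5, and its 4 probes ranged from 14.5 to 19.6 points. With the FaDu arrays labelled miR-7 in place of those labelled miR-NC, the difference was 9.13 points, and with all arrays it was 11.9 points. EGFR thus stood higher in HN5 under either reading of the FaDu labels.

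The other ErbB receptors differed less. ERBB2 ranked 91.2 and 89.8 in HN5 and 87.8, 86.7 and 87.8 in FaDu, and ERBB3, the kinase-impaired partner of the family, ranked 74.2 and 77.1 in HN5 and 83.9, 84.9 and 84.5 in FaDu (-8.80 ± 0.990 SE, adjusted p = 0.00019). Another probe of ERBB3 differed by 4.78 points in the other direction, and over the mean of its probes the difference was no longer past the threshold (-2.01 points, adjusted p = 0.22). MET, the receptor of hepatocyte growth factor, ranked 68.996 and 68.9 in HN5, against 90.6, 89.99 and 89.9 in FaDu, which was 11.3-fold lower in HN5 (adjusted p = 1.7e-06) and -20.9 points with all arrays.

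Among the EGFR ligands, HBEGF ranked 89.6 and 90.5 in HN5, against 75.6, 74.97 and 73.1 in FaDu (6.17-fold higher, adjusted p = 1.2e-05). TGFA ranked 86.8 and 84.8 in HN5 and 74.9, 73.6 and 74.97 in FaDu, with 3.64-fold and adjusted p = 4.2e-05, but with all arrays it differed by only 2.48 points (adjusted p = 0.45). EREG, the ligand epiregulin, ran the other way with 65.4 and 67.04 in HN5 and 82.5, 80.1 and 80.4 in FaDu (4.76-fold lower, adjusted p = 2.8e-05). Of the 8 tested ligands and sheddases 3 ranked higher and 2 lower in HN5, beside 40.1% and 38.4% of all genes, and 5 and 3 of 9 did with the FaDu arrays labelled miR-7 in place of the others. Of 15 tested inhibitors of the receptor 7 ranked higher and 5 lower in HN5, near the 40.1% and 38.4% of all genes. By rank only LRIG3, a transmembrane protein related to the EGFR antagonist LRIG1, reached a large difference. It ranked 77.4 and 75.6 in HN5 and 52.2, 45.7 and 56.5 in FaDu, where it was not detected (at least 3.74-fold higher in HN5). On the log2 scale 4 of the inhibitors were at least 4-fold higher and 0 at least 4-fold lower in HN5 by the same rule.

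Of 17 other receptor tyrosine kinases tested, 11 ranked higher and 3 lower in HN5, beside 40.1% and 38.4% of all genes. A large difference was found in 3, all higher, beside 3.8% of all genes. EPHB3 ranked 80.3 and 80.9 in HN5, against 45.6, 55.9 and 44.7 in FaDu (at least 5.93-fold higher in HN5, adjusted p = 0.00017), and EPHA4 ranked 77.9 and 76.5 in HN5, against 22.97, 45.5 and 36.9 in FaDu (at least 4.05-fold higher in HN5, adjusted p = 0.00083), both receptors of ephrins. PDGFRA was only just detected in HN5, at 63.2 and 64.1, against 2.78, 5.59 and 26.2 in FaDu, and without either HN5 array its adjusted p was 0.066 or 0.069, and with undetected levels at the lowest detected rank it was 0.57. AXL, the receptor of GAS6, averaged 83.4 in HN5 and 93.9 in FaDu. PIK3CD, a catalytic subunit of phosphoinositide 3-kinase, ranked 84.1 and 84.6 in HN5 and 48.1, 59.3 and 62.2 in FaDu, detected on 1 of the 3 FaDu arrays, and it fell short of a large difference because with all arrays it differed by 20.5 points.

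SMAD4, the shared mediator of transforming growth factor beta and bone morphogenetic protein signals, was detected in HN5 only. It ranked 87.9 and 86.4 in HN5, against 8.09, 10.5 and 4.18 in FaDu, and the scanner intensities were 1950.1 and 1095 in HN5, against 97.6, 107.8 and 121.5 in FaDu. SMAD4 was at least 12.8-fold higher in HN5, adjusted p = 7.4e-05, and it was detected on all 4 HN5 arrays and on 0 of the 6 FaDu arrays. ME2, the mitochondrial malic enzyme whose gene lies next to SMAD4 on chromosome 18, ranked 89.8 and 89.1 in HN5, against 29.3, 3.59 and 16.3 in FaDu (at least 17.1-fold higher in HN5, adjusted p = 0.00016), and MEX3C, the tested gene on the other side, averaged 78.5 in HN5 and was not detected in FaDu.

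Of the 20 tested genes nearest to SMAD4, chosen for description after the values were seen, 13 ranked higher and 5 lower in HN5. Over all genes these shares were 40.1% and 38.4%. The median difference of the 20 was 8.73 points. TCF4, a transcription factor, averaged 80.03 in HN5 and was not detected in FaDu, while ACAA2, an enzyme of mitochondrial fatty acid oxidation, averaged 77.8 in FaDu and was not detected in HN5, so the stretch was not uniform. On chromosome 18 as a whole, 15 of 145 tested genes had a large difference higher in HN5 (10.3%) and 1 had one lower (0.69%), beside 3.8% and 2.52% of all genes. The lowest median difference of a chromosome was that of chromosome 14, at -4.28 points over 334 genes.

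Of 21 tested genes of the SMAD and transforming growth factor beta list, 12 ranked higher and 2 lower in HN5, beside 40.1% and 38.4% of all genes, with a median difference of 8.08 points. With the FaDu arrays labelled miR-7 in place of the others 12 ranked higher and 4 lower, with a median of 4.74 points. ID2, an inhibitor of helix-loop-helix factors, ranked 76.4 and 78.6 in HN5, against 22.97, 28.99 and 43.7 in FaDu (at least 4.19-fold higher in HN5, adjusted p = 0.00052). TGFBI, a secreted matrix protein named for its induction by transforming growth factor beta, averaged 99.8 in HN5 and 82.98 in FaDu, which was 38.6-fold higher in HN5. SMAD3 averaged 88.7 in HN5 and 91.1 in FaDu and SMAD2 averaged 66.9 in HN5 and 65.4 in FaDu; of these receptor-regulated partners of SMAD4, SMAD3 was lower in HN5 and SMAD2 did not pass the test.

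Around EGFR, 11 of the 20 nearest tested genes ranked higher and 4 lower in HN5, beside 40.1% and 38.4% of all genes. Their median difference was 2.44 points. The 2 tested genes next to EGFR on one side differed by nearly as much as EGFR did: LANCL2, related to bacterial lanthionine synthetases, averaged 96.8 in HN5 and 80.9 in FaDu, and VOPP1, an endosomal membrane protein, averaged 97.4 in HN5 and 81.5 in FaDu. On the other side COBL, an actin nucleator, ranked 27.9 and 30.3 in HN5, against 77.1, 78.1 and 78.6 in FaDu, where it was detected on every array, and GRB10, an adaptor of receptor tyrosine kinases, averaged 64.3 in HN5 and 79.01 in FaDu. Farther along the same side SUN3, a nuclear envelope protein, averaged 67.2 in HN5 and was not detected in FaDu, and ABCA13, a membrane transporter, averaged 82.4 in HN5 and was not detected in FaDu. The genes around EGFR were thus not uniform in direction. They were taken by their order on the chromosome, whatever their distance from EGFR. The paper cites a report of EGFR gene amplification in HN5 cells, and copy number was not tested here.

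CCND1, which encodes cyclin D1, lay near the top in both lines, at 99.8 and 99.6 in HN5 and 99.2, 99.2 and 99.2 in FaDu. Its difference of 0.529 points had an adjusted p of 0.012 and was not past the threshold with all arrays (0.239 points, adjusted p = 0.27). Of the 20 tested genes around CCND1, 4 ranked higher and 13 lower in HN5, beside 40.1% and 38.4% of all genes. Their median difference was -3.54 points. PPFIA1, a scaffold protein of focal adhesions, averaged 92.01 in HN5 and 99.2 in FaDu, LTO1 averaged 89.04 in HN5 and 97.2 in FaDu, and FADD, the adaptor of death receptors, averaged 94.3 in HN5 and 98.4 in FaDu. Further out, LRP5, a co-receptor of Wnt ligands, averaged 77.4 in HN5 and 93.3 in FaDu. GAL, which encodes the neuropeptide galanin, ranked 24.5 and 1.15 in HN5, against 95.3, 95.03 and 94.2 in FaDu (at least 40.4-fold lower in HN5, adjusted p = 2.6e-05).

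**Figure D4:**
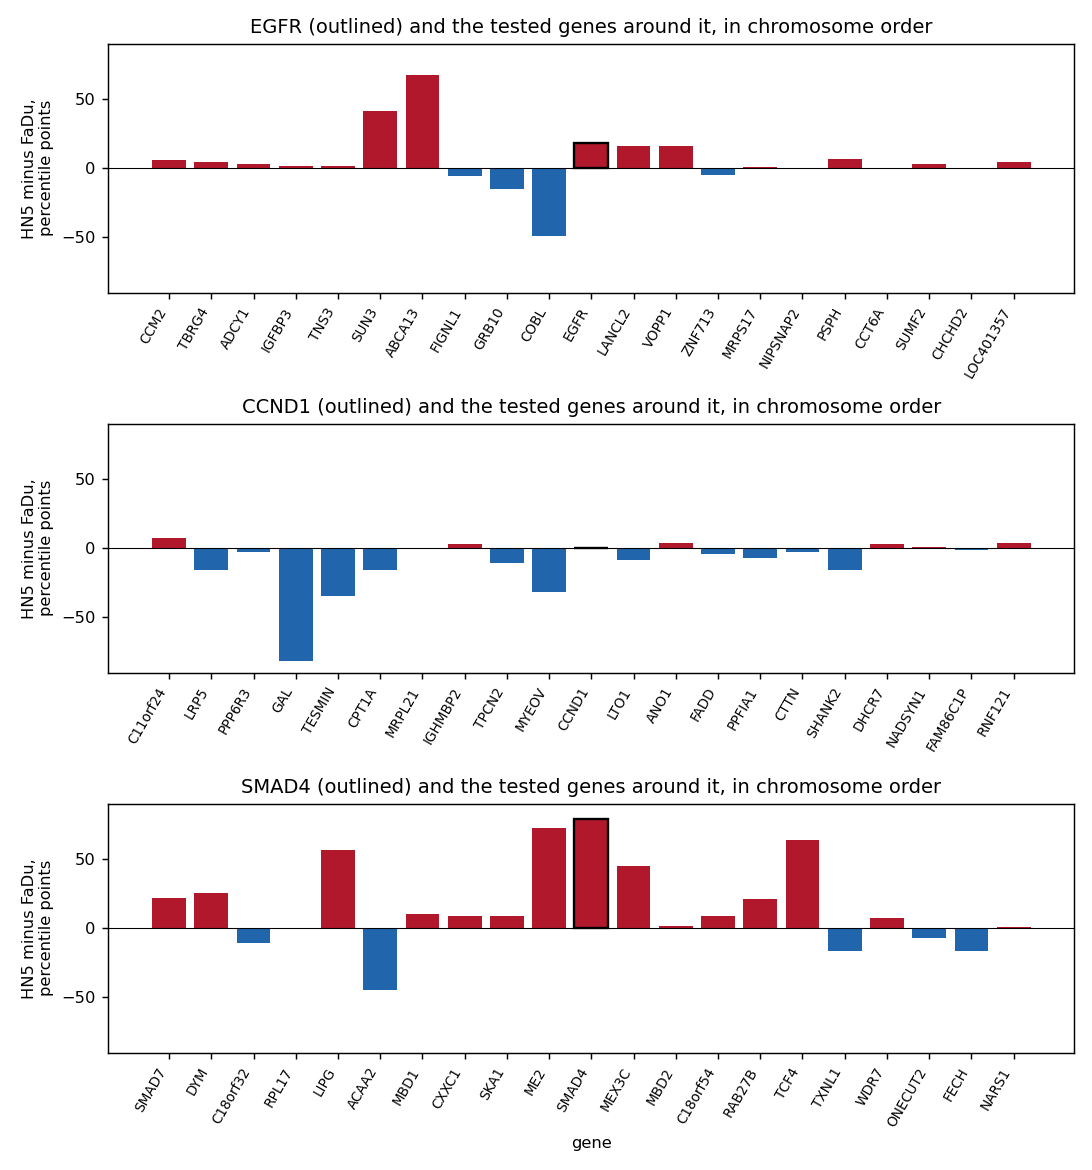
HN5 minus FaDu difference in percentile points (y axis, miR-NC arrays) for EGFR, CCND1 and SMAD4 and the 10 tested genes on each side in chromosome order (x axis); red bars are higher and blue bars lower in HN5, and the height of a bar carries no measurement where a gene was not detected in one of the lines. Around CCND1 13 of 20 genes ranked lower in HN5, beside 38.4% of all genes, while CCND1 itself did not. SMAD4 stands between ME2 and MEX3C, all 3 with a large difference.

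Most genes of the mesenchymal list ranked higher in HN5. VIM, the intermediate filament vimentin, ranked 99.5 and 99.2 in HN5, against 78.8, 78.6 and 78.7 in FaDu, a difference of 20.7 ± 0.446 SE, adjusted p = 1.6e-06, which was 44.1-fold, and the HN5 ranks were among the highest of the array. COL5A2, a chain of fibrillar collagen V, ranked 94.5 and 93.7 in HN5, against 18.5, 21.1 and 29.2 in FaDu (at least 35.8-fold higher in HN5, adjusted p = 1.1e-05), and its partner COL5A1 ranked 98.3 and 97.8 in HN5 and 73.6, 73.7 and 72.5 in FaDu (38.3-fold). COL1A1 ranked 84.5 and 86.4 in HN5, against 52.3, 47.3 and 56.8 in FaDu (at least 10.4-fold higher in HN5, adjusted p = 4.3e-05), and MMP2, a gelatinase, ranked 69.3 and 69.5 in HN5, against 16.9, 29.2 and 32.6 in FaDu (at least 1.76-fold higher in HN5, adjusted p = 0.00095). Of the 16 tested genes of the list 14 ranked higher and 1 lower in HN5, beside 40.1% and 38.4% of all genes, with a median difference of 12.9 points, or 8.46 points with all arrays. CDH1, the epithelial cadherin, was near the top in both lines, at 97.5 and 97.4 in HN5 and 96.4, 96.1 and 96.2 in FaDu.

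Fibroblast markers moved with this group: 5 of 9 were detected on both HN5 arrays (COL1A1, COL3A1, LUM, PDGFRA and FAP) and 0 of 9 on any FaDu array, and the mean percentile over the 9 was 54.3 and 55.5 in HN5 and 26.6 to 30.5 in FaDu. On HN5 miR-7 replicate 2, COL3A1, LUM and FAP ranked 63.7, 27.4 and 63.7, below its lowest detected rank of 64.1. None of them had a large difference. Apart from COL1A1 the mean HN5 miR-NC ranks of the detected markers lay between 63.6 and 67.4, close to the detection level. COL1A2, DCN, PDGFRB and THY1 were not detected in either line. The part of the fibroblast markers in the result was not tested. Leukocyte markers were detected for 2 of 8 genes in both lines (CD14 and CD68), and of the endothelial markers PECAM1 was detected only in HN5 and CDH5 only in FaDu, at 65.2, 68.2 and 66.4, just above detection.

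Receptors and ligands of the matrix followed: 24 of 29 tested integrin, laminin and basement membrane genes ranked higher in HN5 and 4 lower. Over all genes these shares were 40.1% and 38.4%. The median difference of the list was 6.04 points. LAMA1, a laminin chain, ranked 72.8 and 72.1 in HN5, against 7.67, 38.98 and 19.1 in FaDu (at least 2.41-fold higher in HN5, adjusted p = 0.0027). COL4A6, a basement membrane collagen, ranked 91.03 and 89.3 in HN5 and 62.5, 53.7 and 63.3 in FaDu, detected on 1 of the 3 FaDu miR-NC arrays. LAMB3, a chain of the laminin that anchors basal keratinocytes, averaged 99.7 in HN5 and 90.1 in FaDu, and COL7A1, the collagen of anchoring fibrils, averaged 99.2 in HN5 and 89.8 in FaDu. ITGB2, the integrin chain of leukocytes, averaged 77.5 in HN5 and 89.6 in FaDu and thus ran the other way. COL22A1, a collagen of tissue junctions, ranked 79.6 and 76.8 in HN5 and 13.7, 8.72 and 0.881 in FaDu (at least 4.53-fold higher in HN5, adjusted p = 0.00052). TIMP3, a matrix-bound inhibitor of metalloproteinases, ranked 71.1 and 71.2 in HN5, against 16.6, 13.01 and 7.72 in FaDu (at least 2.10-fold higher in HN5, adjusted p = 0.0011), MMP28 ranked 89.1 and 89.5 in HN5, against 62.6, 59.2 and 59.9 in FaDu, and MMP12, the macrophage elastase, ranked 22.5 and 23.5 in HN5, against 70.6, 71.6 and 72.1 in FaDu (at least 2.12-fold lower in HN5, adjusted p = 1.4e-05).

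Zinc finger genes of chromosome 19, most of which encode repressors with a KRAB domain, stood out among the genes lower in HN5. This group was picked after the values were seen and is described without a test. Of 122 tested genes of the group, 15 had a large difference lower in HN5 (12.3%) and 2 higher (1.64%), with a median difference of -5.31 points, and 33 were not detected on any HN5 array against 5 on any FaDu array. Among 170 zinc finger genes of other chromosomes 8 had a large difference lower (4.71%), and among 560 other genes of chromosome 19 it was 11 (1.96%, median difference 2.76 points). ZNF256 ranked 19.01 and 27.3 in HN5, against 83.003, 83.1 and 84.1 in FaDu (at least 8.01-fold lower in HN5, adjusted p = 4.9e-06). ZNF613 ranked 12.8 and 13.4 in HN5, against 82.1, 81.4 and 81.9 in FaDu (at least 6.68-fold lower in HN5, adjusted p = 3.0e-06). ZNF331, an imprinted gene of the cluster, ranked 29.1 and 15.95 in HN5, against 83.7, 81.7 and 82.1 in FaDu (at least 7.23-fold lower in HN5, adjusted p = 1.5e-05), and ZSCAN18, which carries a SCAN domain, ranked 5.59 and 16.6 in HN5, against 73.2, 74.5 and 76.1 in FaDu (at least 2.96-fold lower in HN5, adjusted p = 2.5e-05). In each of the 4 the HN5 arrays were below detection and the FaDu arrays above it. Zinc finger genes of a cluster are similar in sequence, so some probes may not be specific.

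Zinc finger genes with the opposite sign were few: ZNF329 ranked 63.3 and 69.9 in HN5 and 13.9, 14.7 and 32.8 in FaDu, and ZSCAN1 ranked 71.96 and 74.1 in HN5 and 10.4, 32.7 and 33.7 in FaDu. ZNF365, on chromosome 10, was among the genes detected in HN5 only, at 91.4 and 90.6, against 44.1, 20.6 and 41.4 in FaDu (at least 21.3-fold higher in HN5, adjusted p = 0.00027). ZBED2, a zinc finger factor of keratinocytes, ranked 91.97 and 91.8 in HN5, against 2.38, 5.59 and 16.99 in FaDu (at least 24.5-fold higher in HN5, adjusted p = 5.2e-05).

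Cancer-testis antigens, normally silent outside the germ line, were expressed in different sets. MAGEA3 ranked 89.7 and 87.2 in HN5, against 40.5, 46.8 and 50.2 in FaDu (at least 15.2-fold higher in HN5, adjusted p = 2.0e-05), MAGEA1 ranked 75.8 and 77.3 in HN5, against 42.4, 28.99 and 40.9 in FaDu (at least 3.77-fold higher in HN5, adjusted p = 0.00024), and CTAG2 ranked 84.5 and 87.9 in HN5, against 26.7, 10.8 and 26.96 in FaDu (at least 11.5-fold higher in HN5, adjusted p = 8.9e-05). MAGEA4 went the other way with 30.7 and 15.8 in HN5, against 97.1, 96.98 and 96.9 in FaDu (at least 68.7-fold lower in HN5, adjusted p = 7.3e-06), and both of its probes were lower in HN5. Of 41 genes of the list with a shared probe only 8 were detected in either line. Of these 6 ranked higher and 2 lower in HN5, beside 40.1% and 38.4% of all genes. A large difference higher was found in 5 and lower in 1, beside 3.8% and 2.52%. Of the 8 genes, 4 were detected in HN5 only and 1 in FaDu only, so the detection filter fixed the direction of these. Over all 10105 genes tested, 486 and 339 were of that kind, so the shares over all genes are not a like background. Near-identical copies on the X chromosome may share the signal of MAGEA2, MAGEA3, MAGEA6 and CTAG2.

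Of the 35 tested lineage factors 19 ranked higher and 14 lower in HN5, beside 40.1% and 38.4% of all genes (median difference 1.75 points). A large difference was found in 4, all lower, beside 2.52% of all genes. KLF5, a factor of proliferating epithelium, ranked 27.5 and 51.9 in HN5, against 74.5, 76.5 and 77.96 in FaDu (at least 3.59-fold lower in HN5, adjusted p = 0.0016), and BARX2, a homeobox factor, ranked 39.8 and 40.8 in HN5, against 72.1, 71.5 and 71.3 in FaDu (at least 2.15-fold lower in HN5, adjusted p = 1.3e-05). LHX2 ranked 28.6 and 18.2 in HN5, against 75.99, 75.98 and 76.9 in FaDu (at least 3.58-fold lower in HN5, adjusted p = 1.8e-05). NKX2-5, known from the heart, ranked 28.8 and 34.8 in HN5, against 70.7, 70.9 and 70.4 in FaDu, where it was weakly detected. Of 19 tested HOX genes and partners 7 ranked higher and 9 lower in HN5, near the 40.1% and 38.4% of all genes. HOXB2 ranked 21.04 and 50.1 in HN5, against 77.01, 75.8 and 76.2 in FaDu. HOXB4 ranked 39.1 and 41.5 in HN5, against 69.6, 69.5 and 69.5 in FaDu. HOXD12 ran the other way with 71.1 and 70.5 in HN5, against 14.5, 12.4 and 43.99 in FaDu.

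Wnt and Notch genes differed in both directions, 7 of 39 with a large difference higher and 2 lower in HN5, beside 3.8% and 2.52% of all genes, and a median difference of 7.43 points. With the FaDu arrays labelled miR-7 in place of the others the median was 3.73 points, and 5 had a large difference higher. WNT3A, a ligand of the beta-catenin pathway, ranked 78.3 and 76.2 in HN5, against 25.5, 42.8 and 42.6 in FaDu (at least 4.08-fold higher in HN5, adjusted p = 0.00059), and SFRP1, a secreted antagonist, ranked 65.5 and 66.1 in HN5, against 39.1, 21.3 and 35.3 in FaDu, close to detection. DKK1, the secreted inhibitor of Wnt co-receptors, ranked 19.6 and 28.7 in HN5, against 95.2, 96.1 and 95.7 in FaDu (at least 48.6-fold lower in HN5, adjusted p = 2.6e-06). DLL3, an inhibitory Notch ligand, ranked 10.1 and 6.25 in HN5, against 67.2, 68.3 and 69.7 in FaDu (at least 1.56-fold lower in HN5, adjusted p = 5.4e-05). WNT4 ranked 78.7 and 77.7 in HN5, against 26.7, 29.4 and 23.1 in FaDu (at least 4.53-fold higher in HN5, adjusted p = 5.4e-05). It was detected on 1 of the 6 FaDu arrays once those labelled miR-7 were counted. With these in place of the others it differed by 19.1 points, short of 25.

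Cytokines with a large difference were 6, all higher in HN5, of 30 tested, among which 21 ranked higher and 8 lower, beside 40.1% and 38.4% of all genes (median difference 10.1 points). With the FaDu arrays labelled miR-7 in place of the others 16 of 32 ranked higher and 10 lower, with a median of 2.85 points, and with all arrays 12 of 28 and 7, with a median of 4.67 points. CXCL14, a chemokine of normal epithelium, ranked 87.7 and 87.9 in HN5, against 51.3, 52.1 and 53.6 in FaDu (at least 13.9-fold higher in HN5, adjusted p = 3.1e-06). IL36G, an interleukin 1 family member of keratinocytes, ranked 89.1 and 89.6 in HN5, against 55.4, 43.3 and 40.1 in FaDu (at least 17.03-fold higher in HN5, adjusted p = 0.0001). It was detected on 2 of the 6 FaDu arrays once those labelled miR-7 were counted. With these in place of the others it differed by 25.02 points. IL11 ranked 77.9 and 80.4 in HN5, against 47.4, 50.8 and 47.6 in FaDu and IL37 ranked 71.5 and 71.9 in HN5, against 10.6, 24.9 and 15.9 in FaDu. EDN1, the vasoactive peptide endothelin, was detected in HN5 only, at 90.5 and 91.4, against 50.6, 39.6 and 49.8 in FaDu (at least 21.3-fold higher in HN5, adjusted p = 3.1e-05). CXCL8, a chemokine of neutrophils, averaged 92.1 in HN5 and 95.9 in FaDu, so the inflammatory genes were not all on one side. CSF1R, the receptor of the macrophage growth factor and the only gene of the leukocyte list with a large difference, ranked 85.98 and 85.7 in HN5, against 16.01, 39.6 and 44.3 in FaDu (at least 10.96-fold higher in HN5, adjusted p = 0.00081). Of 48 interferon-stimulated genes tested 24 ranked higher and 12 lower, beside 40.1% and 38.4% of all genes, while with all arrays 30 ranked higher, the other 18 did not pass limma's test, and with the FaDu arrays labelled miR-7 in place of the others 29 and 8. Among them were 2 with a large difference, MX2 with 89.6 and 90.8 in HN5 and 60.99, 64.1 and 46.5 in FaDu and GBP3 with 70.8 and 68.1 in HN5 and 24.3, 51.9 and 27.2 in FaDu.

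Several bright FaDu genes of other functions were not detected in HN5. EEF1A2, the tissue-restricted isoform of translation elongation factor 1 alpha, ranked 0.676 and 17.7 in HN5, against 98.7, 98.5 and 98.5 in FaDu (at least 125-fold lower in HN5, adjusted p = 6.3e-06). EPDR1, an ependymin-related lysosomal protein, ranked 20.8 and 4.38 in HN5, against 97.9, 98.03 and 97.9 in FaDu (at least 95.2-fold lower in HN5, adjusted p = 6.4e-06). GALC, which degrades galactosylceramide, ranked 3.07 and 15.95 in HN5, against 89.6, 89.6 and 89.5 in FaDu (at least 17.1-fold lower in HN5, adjusted p = 5.3e-06), and PLIN2, the coat protein of lipid droplets, ranked 48.2 and 1.90 in HN5, against 91.03, 91.6 and 91.5 in FaDu (at least 22.1-fold lower in HN5, adjusted p = 0.0016). GPX3, a secreted glutathione peroxidase, ranked 7.42 and 0.491 in HN5, against 82.8, 84.02 and 83.4 in FaDu (at least 7.999-fold lower in HN5, adjusted p = 4.5e-06). MYADM, a membrane protein of lipid rafts, ranked 34.4 and 14.4 in HN5, against 93.4, 93.3 and 93.004 in FaDu. ADD2, the beta chain of adducin, which caps the membrane skeleton, ranked 11.4 and 20.3 in HN5, against 89.4, 89.3 and 89.4 in FaDu. KCNT1, a potassium channel gated by sodium, ranked 2.89 and 3.52 in HN5, against 81.7, 81.6 and 82.02 in FaDu (at least 6.64-fold lower in HN5, adjusted p = 4.0e-06).

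In the other direction UBQLN2, which carries ubiquitinated proteins to the proteasome, ranked 91.3 and 90.3 in HN5, against 3.58, 7.90 and 6.79 in FaDu (at least 20.9-fold higher in HN5, adjusted p = 4.3e-05). RYR3, a calcium release channel of the endoplasmic reticulum, ranked 80.7 and 82.3 in HN5, against 0.302, 2.64 and 7.88 in FaDu, ICAM2, an adhesion ligand of leukocytes, ranked 82.9 and 83.1 in HN5, against 4.91, 12.1 and 9.27 in FaDu, and RAMP1, a subunit of the receptor for calcitonin gene-related peptide, ranked 76.4 and 79.7 in HN5, against 1.16, 2.64 and 21.6 in FaDu. CA12, a carbonic anhydrase of hypoxic cells, ranked 79.2 and 79.1 in HN5, against 13.4, 26.9 and 25.8 in FaDu (at least 5.05-fold higher in HN5, adjusted p = 0.00015), and TNFRSF10A, a death receptor, ranked 85.7 and 86.8 in HN5, against 37.8, 22.9 and 28.6 in FaDu (at least 11.5-fold higher in HN5, adjusted p = 4.8e-05). Drug and retinoid metabolism split evenly, 5 of 35 tested genes with a large difference higher and 5 lower, beside 3.8% and 2.52% of all genes. ALDH7A1 ranked 88.5 and 87.9 in HN5, against 58.6, 57.7 and 46.7 in FaDu. CYP26A1, which degrades retinoic acid, ranked 31.8 and 11.4 in HN5, against 76.3, 76.3 and 77.4 in FaDu (at least 3.72-fold lower in HN5, adjusted p = 0.00013).

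Genes detected on all 10 arrays have a measured level in both lines, and 7663 of the tested genes met this. Of these 420 were at least 4-fold higher and 334 at least 4-fold lower in HN5 at an adjusted p under 0.05, while 6 reached a large difference by rank. Those named next were picked from the genes of this set with the highest folds, after their values were seen. They are not its top in order: CKAP4 (61.6-fold higher in HN5) and SNAR-A1 (32.9-fold lower) are among those passed over. CD24, a surface glycoprotein of epithelial cells, ranked 99.7 and 99.5 in HN5, against 72.98, 73.2 and 73.4 in FaDu (95.1-fold higher, adjusted p = 1.6e-06). GAS6, the ligand of AXL, ranked 97.5 and 97.1 in HN5, against 65.7, 66.8 and 65.3 in FaDu (60.7-fold higher), and AKR1C2, a ketosteroid reductase, ranked 98.9 and 98.8 in HN5, against 74.9, 75.8 and 77.2 in FaDu (43.5-fold higher). SIRPA, an inhibitory receptor that binds CD47, ranked 97.3 and 96.7 in HN5, against 69.9, 68.1 and 69.2 in FaDu (41.6-fold higher). Lower in HN5, TPM2, the beta chain of tropomyosin, ranked 70.99 and 70.9 in HN5, against 97.5, 97.3 and 97.05 in FaDu (37.4-fold lower), ALDH3A1, an aldehyde dehydrogenase of the cornea and upper airway, ranked 71.6 and 71.6 in HN5, against 93.9, 93.97 and 93.1 in FaDu (15.01-fold lower), and CYBA, a subunit of NADPH oxidases, ranked 73.5 and 78.2 in HN5, against 97.7, 97.6 and 97.4 in FaDu (24.1-fold lower).

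Housekeeping and growth genes differed little by rank, a scale that compresses differences between bright genes. Among 42 ribosomal protein genes 7 ranked higher and 12 lower, beside 40.1% and 38.4% of all genes. They had 0 large differences and a median absolute difference of 0.433 points. On the log2 scale 1 of them was at least 4-fold higher and 2 at least 4-fold lower in HN5 by the same rule. RPL7A, a ribosomal protein gene, was 25.5-fold lower in HN5. Among 20 housekeeping controls the median absolute difference was 0.483 points, with 7 higher and 4 lower. Of 32 genes of G2/M and mitosis 2 ranked higher and 24 lower in HN5, beside 40.1% and 38.4% of all genes, 0 with a large difference, and the median difference was -1.74 points. With the FaDu arrays labelled miR-7 in place of the others these counts were 8 and 17, with a median of -1.05 points, and with all arrays 5 and 17. On the log2 scale 2 of the G2/M and mitosis genes were at least 4-fold lower and 0 higher in HN5. For G1/S and DNA replication the median difference was 0.141 points, with 10 of 27 higher and 6 lower.

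Detection needs no common scale between array types, since each array is judged against its own negative controls. By it 486 genes were detected on both HN5 miR-NC arrays with no shared probe under a detection p-value of 0.05 on any FaDu miR-NC array, and 339 were detected in FaDu only. With all arrays of each line these counts were 316 and 242. Brightest in HN5 were KRT6C, CALML3, RASIP1, COL5A2 and ZBED2, and brightest in FaDu were KRT19, EEF1A2, EPDR1, KRT8 and MAGEA4. RASIP1, a Ras-interacting protein of vessels, ranked 96.2 and 95.4 in HN5, against 46.3, 37.9 and 46.8 in FaDu (at least 50.999-fold higher in HN5, adjusted p = 8.5e-06). CGB5, a beta chain of chorionic gonadotropin, ranked 89.2 and 90.6 in HN5, against 28.1, 37.5 and 22.1 in FaDu (at least 18.3-fold higher in HN5, adjusted p = 3.5e-05), and it belongs to a family of near-identical genes.

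Whether the line difference depended on the precursor label was tested over all 10 arrays. Of 10353 genes 2576 passed an adjusted p of 0.05 (24.9%), 1398 with a more positive and 1178 with a more negative HN5 minus FaDu difference under miR-7. EGFR ranked 95.3 and 95.1 in HN5 labelled miR-7, against 98.9 and 98.7 in HN5 labelled miR-NC, and 90.1, 89.5 and 89.3 in FaDu labelled miR-7, against 80.2, 80.7 and 80.4 in FaDu labelled miR-NC. By these labels it was thus lower with miR-7 in HN5 and higher in FaDu, a change of the line difference of -12.8 ± 0.481 SE, adjusted p = 2.3e-06. IL1B, the cytokine interleukin 1 beta, behaved alike, with 84.7 and 83.3 in HN5 miR-7, 91.9 and 91.9 in HN5 miR-NC, 89.3, 88.1 and 88.6 in FaDu miR-7 and 72.5, 72.7 and 71.3 in FaDu miR-NC (-24.4 ± 0.968 SE, adjusted p = 2.8e-06).

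Some line differences depended on which FaDu arrays were used. IL1B was 19.7 points higher in HN5 among the miR-NC arrays, but 3.21 points with the FaDu arrays labelled miR-7 in place and 7.53 points with all arrays (adjusted p = 0.14). ELK1, a transcription factor of serum response, was 7.79 points higher with the labels as given and -1.17 points with the other FaDu arrays. SRF, its partner factor, was 3.59 points higher, and -0.374 points with the other FaDu arrays. VIM did not share this: its difference was 20.7 points with the labels as given and 19.9 points with the other FaDu arrays.

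**Figure D5:**
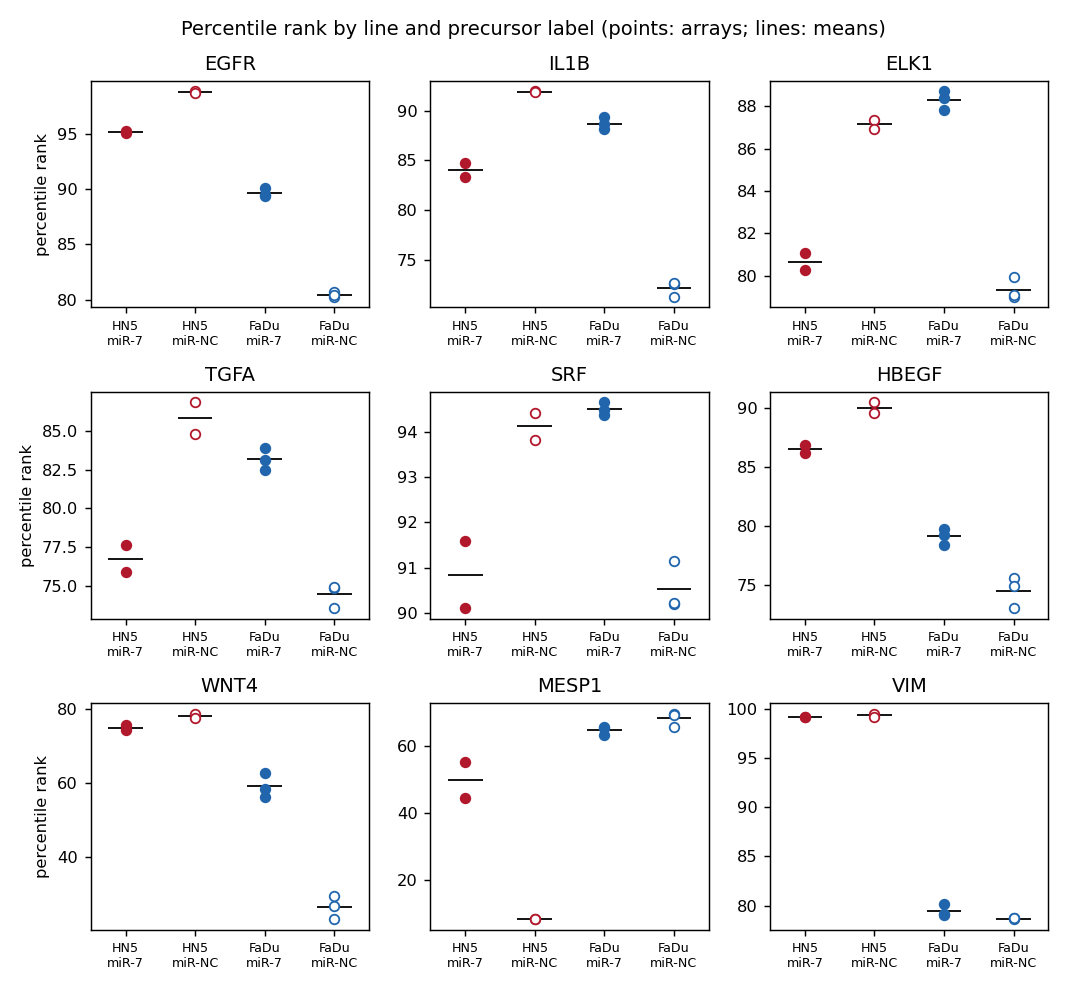
Percentile rank on each of the 10 arrays by line and precursor label for 9 genes, with filled points for arrays labelled miR-7, open points for miR-NC and black lines for group means; each panel has its own y axis. EGFR, IL1B, ELK1, TGFA, SRF and HBEGF are lower with miR-7 than with miR-NC in HN5 and higher in FaDu, and VIM differs between the lines under both labels.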

How the data were processed

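Total RNA of HN5 and FaDu cells was hybridised to Illumina BeadChips of a type of its own for each line. The authors deposited scanner intensities without normalization, together with a detection value per probe that equals 1 minus the detection p-value. The authors also deposited log2 values, transformed in R 2.11.0 and quantile-normalized within each line. The cells of those tables did not stand in the order of their probe identifiers and could be placed only by matching them to the intensities, so no result uses them. An array had 14166 to 15229 shared probes detected, and its median shared intensity was 131.9 to 171.2 in HN5 miR-NC and 115.9 to 151 in FaDu miR-NC; the number of arrays limits the precision.

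Intensities were turned into percentile ranks over the 39424 shared probes. Of these, 26113 were named by 1 gene that is the same in both platform annotations. Each gene was represented by the brightest of its probes that were detected (p-value below 0.01) on all arrays of one line or both. Ranks were fitted with lmFit and eBayes with a trend (limma 3.58.1, R 4.3.3), and p-values were adjusted over all 10105 genes by the method of Benjamini and Hochberg. For the log2 scale, intensities were background-corrected with the detection p-values, offset by 16 and quantile-normalized over both lines. The arrays are labelled as biological replicates, but nothing says that they came from separate cultures, so p-values measure the spread between these arrays. On simulated data, 84% of 50 genes changed 2-fold and 100% of those changed 4-fold passed an adjusted p of 0.05, 0% and 4% reached a large difference, and 0.101% of unchanged genes passed. The simulation gave both lines the same mean for unchanged probes, counted every probe as detected and drew independent noise. It held no effect of array type, so these rates do not carry over to the calls made here.

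The named genes are the 12 with the largest large difference in each direction and up to 5 with a large difference per list. They also include the 10 brightest detected in 1 line only and a set of single genes such as EGFR, CCND1 and VIM. A further 8 had the surest change of the line difference with the precursor label among genes with a large difference only. Surer changes outside that set, such as that of POLE4, are not named by this rule. Genes outside the rule were chosen after their values were seen. Among them are the members given only by their means, the zinc finger genes and the neighbours of SMAD4. The genes, lists and comparison were chosen with earlier results of these data known. AREG, PAK1 and TP63 had no named shared probe and were not analysed here.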

Additional observations from a re-analysis of the deposited data

Results flagged for a closer look

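For 22 named genes the HN5 minus FaDu difference itself changed with the precursor label (limma, interaction of line and label over all 10 arrays, adjusted over 10353 genes). The values are the line difference under miR-7 minus that under miR-NC, and a test of this kind passed in 24.9% of all genes. The FaDu labels are in doubt, and the values hold for the labels as given. The difference was more negative under miR-7 for EGFR by -12.77 points (adjusted p = 2.3e-06), IL1B by -24.39 points (adjusted p = 2.79e-06), ELK1 by -15.44 points (adjusted p = 7.32e-06) and TGFA by -17.71 points (adjusted p = 4.01e-05). It was also more negative for SRF by -7.236 points (adjusted p = 0.000151), WNT4 by -35.95 points (adjusted p = 0.000313), FGF12, a fibroblast growth factor homologue that stays in the cell, by -28.79 points (adjusted p = 0.000616) and CALB2, the calcium-binding protein calretinin, by -9.21 points (adjusted p = 0.000673). More negative values were further found for PLAGL1, an imprinted zinc finger factor, by -22.91 points (adjusted p = 0.000906), HBEGF by -8.064 points (adjusted p = 0.00172), MYEOV, a gene next to CCND1, by -31.64 points (adjusted p = 0.0105) and COL5A2 by -20.96 points (adjusted p = 0.0164). The rest with a negative value were UGT8, a galactosyltransferase of glycolipid synthesis, by -20.58 points (adjusted p = 0.0235), BBC3, a pro-apoptotic p53 target, by -23.62 points (adjusted p = 0.0245) and IL36G by -21.05 points (adjusted p = 0.0301). The difference was more positive under miR-7 for PRSS21, a serine protease known from testis, by 16.01 points (adjusted p = 0.00016), MESP1, a mesoderm transcription factor, by 45.15 points (adjusted p = 0.000377), AQP3, a water and glycerol channel, by 20.05 points (adjusted p = 0.000603) and OR9A4, an olfactory receptor, by 28.52 points (adjusted p = 0.000827). It was also more positive for KRT75 by 25.49 points (adjusted p = 0.00718), GPX3 by 18.56 points (adjusted p = 0.0183) and ERBB3 by 4.976 points (adjusted p = 0.0279). Apart from EGFR, IL1B, ELK1, TGFA, SRF, HBEGF and ERBB3, each of these genes was below detection in one of the lines under miR-NC, so its change includes ranks that have no order.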

How the results depend on the processing

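The number of genes with a large difference followed the threshold and the handling of undetected probes. Higher and lower in HN5 it was 384 and 255 as reported, 725 and 520 at 15 points, 173 and 112 at 40 points, 247 and 149 by normal scores of at least 1, 684 and 551 on the log2 scale at 4-fold, 586 and 490 with ranks over the shared probes detected on every array, 700 and 459 with no detection filter, 5 and 1 for genes detected on every array of both groups, and 45 and 21 with undetected levels at the lowest detected rank (added after the data were seen). Leaving out 1 array gave 362 to 376 higher and 226 to 261 lower, and 3852 to 4079 higher and 3620 to 3893 lower at an adjusted p under 0.05; where this left 1 HN5 array, it was assumed to vary like the FaDu arrays. Ranks over all probes of each array type gave 5357 higher and 2691 lower, so 66.6% of the calls were higher in HN5 instead of 51.1%. Genes detected in HN5 only numbered 316 with all arrays, 798 at a detection p of 0.05, 211 at 0.001 and 522 to 590 with 1 array left out; in FaDu only they numbered 588 at 0.05, 119 at 0.001 and 351 to 441 with 1 array left out. The line difference became more positive under miR-7 in 1050 to 1946 genes and more negative in 910 to 1808 with 1 array left out, 1808 being without HN5 miR-7 replicate 1.

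Of 1738 values of 107 named genes under alternatives, 1716 kept their direction and their side of the threshold, 19 kept the direction but missed the threshold and 3 reversed. ELK1 was -1.17 points with the FaDu arrays labelled miR-7 in place (adjusted p = 0.0415), and SRF was -0.374 points there (adjusted p = 0.22) and -0.0277 points with all arrays (adjusted p = 0.985). RYR3 missed the threshold by normal scores (adjusted p = 0.127), and MAGEA2 did without HN5 miR-NC replicate 1 (adjusted p = 0.0569). With the replicate number as a block, 3805 genes were higher and 3630 lower, and 377 and 252 of them by a large difference. Same-numbered miR-NC arrays of the lines had Spearman's rho of 0.811 and 0.806. This lay within the 0.804 to 0.815 of all pairs of miR-NC arrays between the lines. Ranks of the authors' log2 values were not run, because the cells of those tables were out of order and could be placed only through the intensities.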
